A study of Homo sapiens with 3 samples.

Results

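The genes described here are the 10 that code for the D cyclins (CCND1, CCND2, CCND3), their kinases (CDK4, CDK6), the CIP/KIP inhibitors (CDKN1A, CDKN1B, CDKN1C) and the INK4 inhibitors CDKN2C and CDKN2D. They were taken by symbol from the 57773 gene IDs of a count table, each matched 1 ID, and all 10 passed the filter on low counts that left 20382 genes. The libraries came from NB4, a human acute promyelocytic leukaemia line, grown in RPMI medium with fetal bovine serum. In 1 library the cells expressed a non-targeting short hairpin RNA (shRNA), and in 2 libraries an shRNA against ARID1B, a subunit of the BAF chromatin remodelling complex, with hairpin 2 in one and hairpin 3 in the other. All cells thus carried an shRNA, and the labels give neither a time after its delivery nor separate cultures. The p-values therefore reflect no more than how far these particular samples differ, a spread that can be technical. That spread includes the difference between the hairpins and nothing from the control group, which is 1 library. Anything particular to the control library enters every comparison and cannot be told apart from an effect of the knockdown.

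D cyclins activate CDK4 and CDK6 in G1, and the active kinases phosphorylate the retinoblastoma protein, which frees E2F factors to switch on genes of DNA synthesis. INK4 proteins bind CDK4 and CDK6 and keep the cyclin off, whereas CIP/KIP proteins bind assembled cyclin-kinase complexes and inhibit CDK2 above all. Granulocyte precursors leave the cell cycle as they mature, and this set of genes sits at that switch.

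The libraries held between 59997475 and 62954803 counts. ARID1B (ENSG00000049618), the targeted gene, had 5268 counts in the control and 2209 and 2234 under hairpins 2 and 3, which put both knockdown libraries below the control (log2 fold change -1.23 ± 0.125, SE; edgeR adjusted p = 1.4e-05). Of all genes tested with edgeR, 5.49% were called higher and 3.21% lower. Of 6 markers of the line 1 rose and 1 fell, both of them genes for proteases of myeloid granules. PRTN3 had 3363 counts in the control and 14914 and 13672 under the hairpins (log2 2.11 ± 0.151, edgeR adjusted p = 7.5e-07). CTSG had 6837 counts against 1672 and 2183 (log2 -1.81 ± 0.141, edgeR adjusted p = 1.2e-06). MPO, AZU1 and CD33 had at least 3273 counts in each library and did not pass, and ELANE, another granule protease, was nearly absent with 10, 4 and 1 counts. Markers of T, NK and B cells, with 2 of the 4 tested of 6 higher (CD3D and NKG7), summed to 33.6 counts per 1000000 counted reads (CPM) in the control and to 61.4 and 46.4 CPM under the hairpins, with MS4A1 at 0 and CD3E at no more than 3 counts. Epithelial, fibroblast or packaging cell markers, with 1 of the 3 tested of 6 lower (COL6A1), summed to 25.6 CPM in the control and to 19.2 and 24.1 CPM. DESeq2 called CD3D but neither NKG7 nor COL6A1, the NKG7 call was also lost with a stricter filter of 1 CPM on average, and without a filter no marker call held. Of 3 erythroid markers HBA1 was at 0, and the sum was 0.242 CPM in the control and 0.499 and 0.176 CPM. The part of these markers in the results below was not tested, and in bulk RNA fewer cells in a state and less RNA per cell cannot be told apart.

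With ARID1B knocked down, CDK6 and the inhibitor gene CDKN1B (p27) fell and the inhibitor gene CDKN2D (p19) rose. The other 7 genes did not pass the threshold (edgeR's quasi-likelihood F test, p adjusted by Benjamini-Hochberg over all genes). Only the CDK6 call held under a stricter filter of 1 CPM on average, and no call held without a filter. The 3 calls of 10 compare with 8.70% of all genes tested. The single rise compares with 5.49% called higher and the 2 falls with 3.21% called lower. For 9 of the 10 genes both hairpin libraries lay above the control (6, against 36.9% of all genes tested) or both below it (3, against 41.0%), and 77.8% of all genes did one or the other. CDK4 alone had a hairpin on each side. The median log2 fold change was 0.37 over the 10 genes and -0.01 over all genes tested. By hairpin the median log2 difference of the 10 was 0.46 under hairpin 2 and 0.21 under hairpin 3. Over all genes tested these medians were -0.03 and -0.01.

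**Figure D1:**
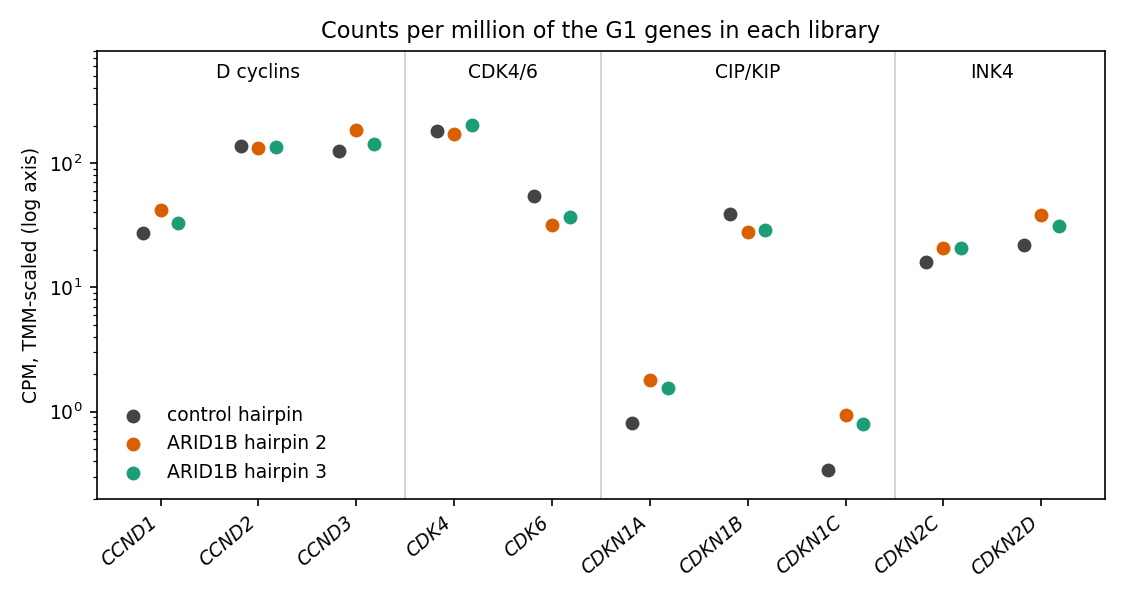
CPM (log axis, scaled to library size with TMM factors) of each gene in the control library and under ARID1B hairpins 2 and 3, 1 point per library. CDK6 and CDKN1B lie lower under both hairpins and CDKN2D higher, while CDKN1A and CDKN1C stay below 2 CPM in all 3 libraries.

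Promoter sequences are shown for CDK6 and CDKN2D, the fall and the rise with the lowest p, so that the start regions of genes that moved in opposite directions can be read side by side. Each stretch holds the 120 bases before the earliest GENCODE 29 transcript start within a RefSeq promoter window (GRCh38.p14), 5′ to 3′, at chr7:92836595-92836714 on the minus strand for CDK6 and at chr19:10569060-10569179 on the minus strand for CDKN2D. Capitals mark GGGCGG, the core of an SP1 box, on either strand.
CDK6: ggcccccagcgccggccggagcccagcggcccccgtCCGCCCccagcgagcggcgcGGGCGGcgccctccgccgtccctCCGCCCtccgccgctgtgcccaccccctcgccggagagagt
CDKN2D: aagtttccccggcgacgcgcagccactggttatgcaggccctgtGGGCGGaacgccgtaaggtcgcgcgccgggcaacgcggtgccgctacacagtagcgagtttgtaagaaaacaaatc
The CDK6 stretch held 3 such boxes at 85.0% G and C, and the CDKN2D stretch 1 at 61.7%. RefSeq windows of 300 bases, 250 before and 50 after a start, were matched for 7 of the 10 genes, 12 windows in all. The whole windows around the 2 printed stretches held 3 boxes each, at 78.0% G and C for CDK6 and 68.0% for CDKN2D. The contrast in boxes between the stretches thus depends on where they were cut, and a further CDK6 window held 0. On both strands GGGCGG was found in 9 of these 12 windows, against 45% of 35116 windows. Each of the 7 genes had it in at least 1 window, for which no share over all genes was counted. The median over all windows was 58.7% G and C, and the shares were not matched for it. CCAAT, the NF-Y box, was in 5 of the 12 (34.6% of all windows), with 3 copies in the window of CDKN1B. The TATA box letters TATAAA, found in 11.5% of all windows, were in none of the 12. The same held for AGATAA (10.3%), which GATA factors bind, and for the E2F site letters TTTGGCGC (0.652%) and TTTCCCGC (1.63%). A match is a string of letters and no measured binding.

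None of the D cyclin genes passed the threshold. CCND1 (ENSG00000110092), which codes for cyclin D1, had 1717 counts in the control and 2501 and 2038 under hairpins 2 and 3, or 27.6, 41.6 and 32.7 CPM. Both hairpin libraries were above the control, but the change did not pass (log2 fold change 0.43 ± 0.157, edgeR adjusted p = 0.118). In GENCODE 29 the gene shares 10.3% of its exon length with LTO1 on the other strand, which had 1835, 1674 and 1770 counts.

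CCND2 (ENSG00000118971), cyclin D2, had 8575, 7860 and 8430 counts, or 138, 131 and 135 CPM in the control and under hairpins 2 and 3. These 3 levels lay close together (log2 fold change -0.05 ± 0.128, 95% interval of the edgeR estimate -0.33 to 0.22, adjusted p = 0.869). CCND3 (ENSG00000112576), cyclin D3, the D cyclin best known for its part in blood cell precursors, had 7783, 11058 and 8811 counts, or 125, 184 and 141 CPM. Hairpin 2 stood well above the other libraries and hairpin 3 near the control. The log2 fold change was 0.38 ± 0.155 and did not pass (edgeR adjusted p = 0.170). Its level under hairpin 3 was 0.769 of that under hairpin 2 (exact 95% counting interval 0.747 to 0.791), the ratio furthest from 1 among the 10 genes.

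Of the kinase genes, CDK6 fell and CDK4 did not pass. CDK6 (ENSG00000105810), the kinase that predominates in many blood precursors and is also known to restrain myeloid maturation, had 3360 counts in the control and 1905 and 2311 under hairpins 2 and 3. The control level was 54.1 CPM, and the hairpin libraries averaged 34.4 ± 3.81 CPM (SD, n = 2). Both hairpin libraries were below the control, which left 58.5% of its level with hairpin 2 and 68.5% with hairpin 3 (exact 95% counting intervals 55.3 to 61.9 and 64.9 to 72.3). The fall was 1.57-fold (log2 -0.65 ± 0.137, edgeR adjusted p = 0.00591). It was called under every alternative that was fitted apart from the one without a filter on low counts (edgeR adjusted p = 0.470; over the alternatives from 0.00129 to 0.470).

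CDK4 (ENSG00000135446) had 11171, 10281 and 12510 counts, or 179.9, 171 and 201 CPM. Hairpin 2 lay just below the control and hairpin 3 above it, so the groups overlapped (log2 fold change 0.05 ± 0.140, 95% interval -0.25 to 0.34, edgeR adjusted p = 0.901). The sign turned with upper quartile factors. CDK4 shares 43.2% of its exon length with TSPAN31 on the other strand, and TSPAN31 showed the same order of libraries, with 5580, 5222 and 6239 counts. As strand use is not given, the CDK4 value is uncertain. Per exon length, CDK6 stood at 7.77 for every 100 of CDK4 in the control library and at 4.79 and 4.77 under hairpins 2 and 3, a smaller share in both.

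**Figure D2:**
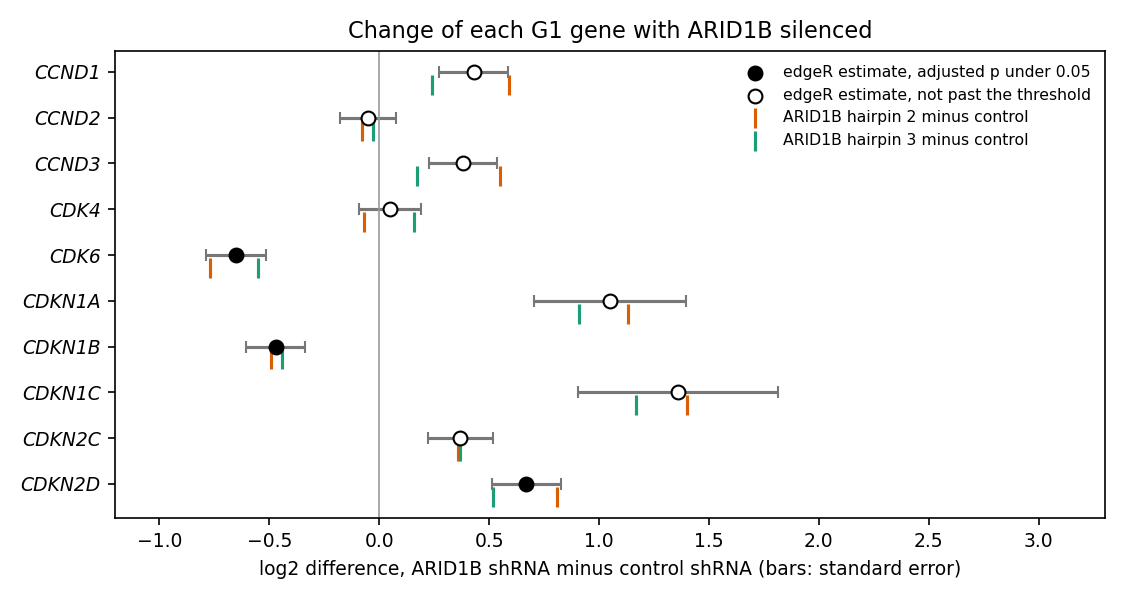
Log2 difference between ARID1B shRNA and control shRNA for each gene, as the edgeR estimate with its standard error (circles, filled where the adjusted p is under 0.05) and as the difference of each hairpin library from the control (ticks). Filled circles mark CDK6 (-0.65), CDKN1B (-0.47) and CDKN2D (0.67), and only CDK4 has its ticks on either side of 0.

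Among the CIP/KIP inhibitors the abundant gene fell. CDKN1B (ENSG00000111276) codes for p27, which holds cells in G1 and is controlled largely by protein breakdown. It had 2431 counts in the control and 1676 and 1794 under hairpins 2 and 3, or 39.1 CPM against 28.3 ± 0.642 CPM (SD, n = 2). The hairpin libraries lay close to each other and below the control, at 71.2% (66.8 to 75.8) and 73.5% (69.1 to 78.2) of its level. The fall was 1.38-fold (log2 -0.47 ± 0.134, edgeR adjusted p = 0.0392). This call was lost with DESeq2 (adjusted p = 0.154), with the stricter filter of 1 CPM on average (0.0670) and without a filter (0.470; over the alternatives from 0.02 to 0.470).

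CDKN1A, whose product p21 rises during myeloid maturation, and CDKN1C (p57), an imprinted gene, were scarce. CDKN1A (ENSG00000124762) had 50 counts in the control and 108 and 96 under the hairpins, or 0.805, 1.80 and 1.54 CPM. CDKN1C (ENSG00000129757) had 21, 57 and 50 counts, or 0.338, 0.948 and 0.802 CPM. Both hairpin libraries stood above the control for each gene, and these were the largest log2 fold changes of the 10, 1.05 ± 0.347 for CDKN1A and 1.36 ± 0.455 for CDKN1C. Neither passed (edgeR adjusted p = 0.0778 and 0.0793), and neither passed under any alternative that tested it. Counting intervals were wide: CDKN1C with hairpin 2 reached 280.3% of the control (167 to 487, exact 95%) and with hairpin 3 reached 237% (139.9 to 416).

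Of the INK4 genes, CDKN2D rose. CDKN2D (ENSG00000129355), which codes for p19INK4d, had 1360 counts in the control and 2310 and 1955 under hairpins 2 and 3, or 21.9 CPM against 34.9 ± 4.99 CPM (SD, n = 2). Both hairpin libraries were above the control, at 175% and 143% of its level (exact 95% counting intervals 164 to 188 and 134 to 154), hairpin 2 more than hairpin 3. The rise was 1.59-fold (log2 0.67 ± 0.155, edgeR adjusted p = 0.0116), and it held with DESeq2. It was lost with the stricter filter of 1 CPM on average (edgeR adjusted p = 0.0525) and without a filter (0.470; over the alternatives from 0.00439 to 0.470).

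CDKN2C (ENSG00000123080), p18INK4c, had 1002, 1245 and 1304 counts, or 16.1, 20.7 and 20.9 CPM. The hairpin libraries were nearly equal and both above the control, and the change did not pass (log2 fold change 0.37 ± 0.15, edgeR adjusted p = 0.163). The other INK4 genes, CDKN2A and CDKN2B, were at 0 counts throughout. A count of 0 leaves room for a level of 0.0487 CPM in the control, 0.05 with hairpin 2 and 0.0477 with hairpin 3. At this depth the INK4 transcripts detected were therefore those of CDKN2C and CDKN2D.

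Levels of different genes were compared as transcripts per 1000000 (TPM), which are counts divided by summed exon length and scaled to that sum in each library. In the control library the order was CDK4 (159.6 TPM), CCND3 (60.7), CCND2 (54.2), CDKN2D (40.9), CDKN1B (39.1), CCND1 (16.1), CDKN2C (13.7), CDK6 (12.4), CDKN1A (0.742) and CDKN1C (0.383). Under both hairpins CDKN2D stood above CCND2, with 71.8 and 57.3 TPM against 51.3 and 51.9, and this was the only change of order. Of the 9 pairs of neighbours in the order of mean knockdown level, 1 had overlapping hairpin libraries, CCND3 (78.0 ± 15.6 TPM; SD, n = 2) and CDKN2D (64.6 ± 10.2 TPM). With the length of the longest transcript in place of the summed exons the order in each library was the same, but CCND3 stood at 115 TPM in the control, 169 under hairpin 2 and 127 under hairpin 3, and no longer overlapped with CDKN2D.

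The families are compared by their summed TPM, with no test. INK4 genes summed to 54.6 TPM in the control and 89.3 and 74.7 TPM under hairpins 2 and 3, and CIP/KIP genes to 40.3, 30.6 and 30.4 TPM. For every 100 of CIP/KIP level there was thus 136 of INK4 in the control and 292 and 246 under the hairpins. CDKN2D made up 75.0% of the INK4 sum in the control and 80.4% and 76.8% under the hairpins. CDKN1B made up 97.2% of the CIP/KIP sum in the control and 91.1% and 92.5% under the hairpins, the scarce CDKN1A and CDKN1C taking the remainder. The ratio of the families thus mostly restates the levels of CDKN2D and CDKN1B. For every 100 of CDKN1B there was 105 of CDKN2D in the control and 258 and 204 under the hairpins. D cyclin genes summed to 131 TPM in the control, 165 under hairpin 2 and 137 under hairpin 3. The share of CCND3 in that sum was 46.3%, 54.1% and 48.7%, and that of CCND2 41.4%, 31.2% and 37.8%, so the composition under hairpin 3 was nearer to the control than that under hairpin 2.

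**Figure D3:**
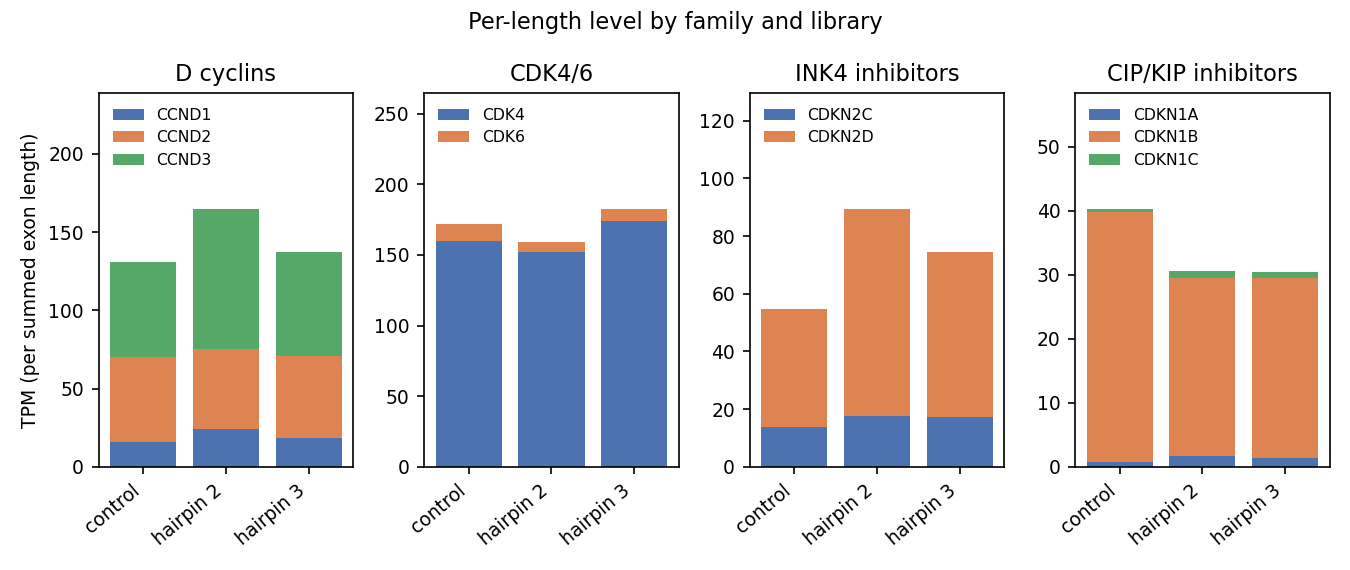
Stacked bars of TPM (per summed exon length, each panel with its own axis from 0) for the members of each family in the 3 libraries. The INK4 sum is higher under both hairpins (89.3 and 74.7 against 54.6 TPM) and the CIP/KIP sum lower (30.6 and 30.4 against 40.3 TPM).

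The hairpins differed from each other in size. By counting error alone, 6 of the 10 genes differed between the hairpin libraries: CCND1, CCND3 and CDKN2D were lower under hairpin 3, and CCND2, CDK4 and CDK6 were higher there. For the other 4, among them CDKN1B and CDKN2C, the exact 95% counting interval included equal levels. At this depth small differences leave out equality, as for CCND2, whose level under hairpin 3 was 1.03 of that under hairpin 2. The share of all genes that differed in this way was not worked out, so the count of 6 marks no trait of the set. There is 1 library per hairpin, so these differences have no replicate check, and the ARID1B transcript itself stood at 43.3% of the control under hairpin 2 and 42.2% under hairpin 3.

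Of 32 G1/S partners (cyclins E and A, CDK2, RB and E2F family genes and others) 29 were tested, and 1 rose and 1 fell. Over all genes tested 8.70% were called, and the median log2 fold change of the 29 was 0.02. E2F8, an atypical E2F that represses E2F targets, fell from 3124 counts to 1196 and 1655, or from 50.3 CPM to 19.9 and 26.5 CPM (log2 -1.12 ± 0.157, edgeR adjusted p = 2.2e-04). CDKN3, a phosphatase that acts on CDK2, had 326 counts in the control against 505 and 595, a rise (log2 0.77 ± 0.197, edgeR adjusted p = 0.0212), a call that was lost with DESeq2 (adjusted p = 0.0789), with the stricter filter (0.0592) and without a filter (0.470; over the alternatives from 0.0115 to 0.470). TFDP1, the partner of E2F proteins, and RBBP4 had log2 fold changes of -0.03 ± 0.141 and -0.04 ± 0.135.

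No gene passed in the S phase list, whose members E2F factors switch on. Of its 28 genes, all tested, 0 passed in edgeR and in DESeq2 and 1 (FEN1, named after its value was seen) had an unadjusted p under 0.05, as had 4226 of all 20382 genes tested. The median log2 fold change was 0.02. MCM7 (0.02 ± 0.162), MCM3 (-0.17 ± 0.153), MCM4 (0.12 ± 0.149) and CDT1 (0.03 ± 0.141), genes for licensing of replication origins, were the most abundant. The hairpins did not lie on the same side of the control for 17 of the 28, against 4515 of all 20382 genes tested. The median log2 difference of the 28 was -0.11 under hairpin 2 and 0.16 under hairpin 3, so the median of 0.02 averages hairpins that differed. Of 25 mitotic genes 0 passed in edgeR and in DESeq2 and 4 had an unadjusted p under 0.05 (NEK2, PLK1, AURKA and CDC20, named after their values were seen). Their median was 0.11, and 17 of the 25 were above the control under both hairpins, against 36.9% of all genes tested. TOP2A (0.20 ± 0.141), MKI67 (0.20 ± 0.136), CENPF (0.11 ± 0.130) and PLK1 (0.31 ± 0.136) had the highest CPM of these.

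Of 16 genes for the turnover of D cyclins, p21 and p27, 2 fell and none rose, against 3.21% lower and 5.49% higher of all genes tested, with a median of -0.03. FBXW8, an F-box protein reported to direct cyclin D1 to breakdown, fell from 2045 counts to 662 and 830, or from 32.9 CPM to 11.0 and 13.3 CPM (-1.44 ± 0.153, edgeR adjusted p = 1.9e-05). USP2, a deubiquitinase known to stabilise cyclin D1, had 159 counts in the control against 47 and 72, a fall (log2 -1.40 ± 0.311, edgeR adjusted p = 0.00904), which DESeq2 did not call (adjusted p = 0.148; over the alternatives from 0.00227 to 0.470). DDB1 (0.04 ± 0.143) and CUL4A (0.10 ± 0.136), parts of the ligase that breaks down p21, did not pass. Without a filter on low counts no call in these lists held.

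**Figure D4:**
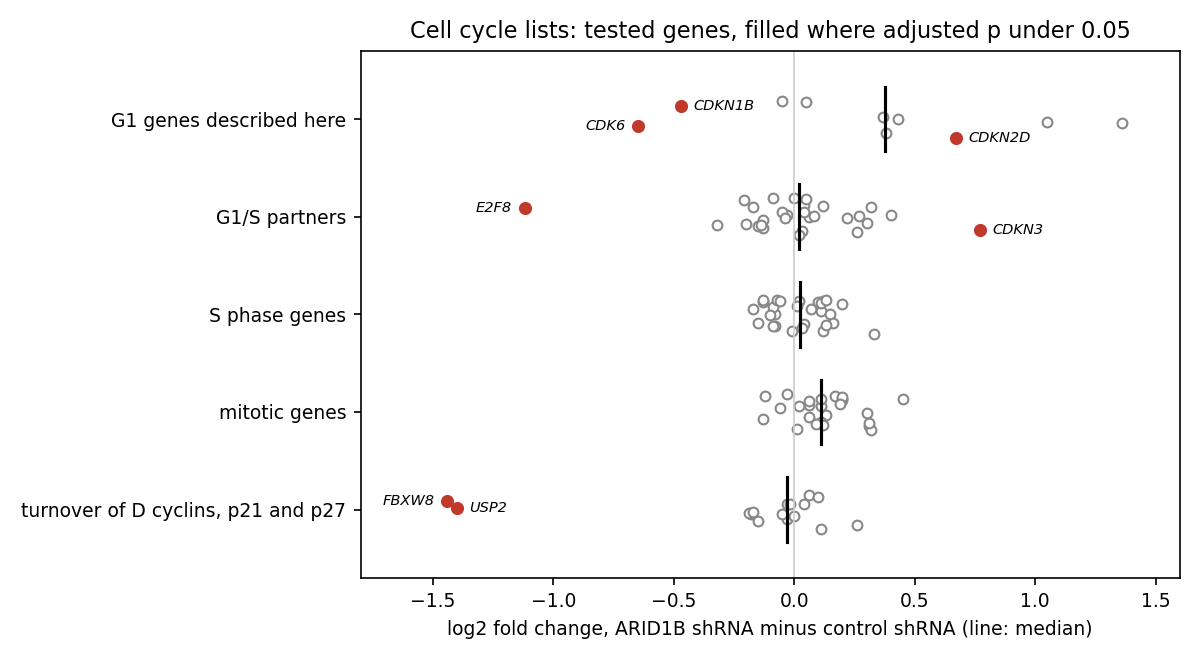
Log2 fold change of every tested gene in the set described here and in 4 cell cycle lists, 1 point per gene, filled and named where the edgeR adjusted p is under 0.05, with a line at each median. The S phase and mitotic lists hold no filled point, and their medians are 0.02 and 0.11 against 0.37 for the 10 genes.

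Of 11591 genes with a mean of at least 5 CPM, those nearest to CDK6 over the 3 libraries (Euclidean distance of mean-centred log2 CPM) were TMEM147 (0.007), C1orf21 (0.009) and CELSR1 (0.019). With 3 libraries such closeness is easily reached, as 89 genes lay within 0.1, and it is given as a description.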

How the data were processed

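Polyadenylated RNA of NB4 cells was sequenced in 3 libraries, and the deposited table holds raw read counts for 57773 Ensembl gene IDs. STAR, Cufflinks, featureCounts and the build hg19 are named per the submitters' processing notes. The sources used here do not say which of them made the counts, with which annotation or strand setting. Without strand, reads of overlapping genes cannot be told apart. GENCODE 29, on another build, gave symbols (52338 IDs), exon lengths and overlaps. Its transcript starts placed the printed promoter stretches, whose coordinates are GRCh38, and no coordinate was used with the counts.

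Counts were tested in R 4.3.3 with edgeR 4.0.16: filterByExpr by group (minimum count 10, leaving 20382 genes), TMM factors, glmQLFit with legacy = FALSE, a two-sided quasi-likelihood test of ARID1B shRNA against control shRNA, and Benjamini-Hochberg adjustment with a threshold of 0.05. Standard errors are the log2 fold change over the square root of F. TPM divides counts by summed exon length. Alternatives covered scaling factors, filters, fit options, DESeq2 1.42.0, the prior count, gene length and leaving out each hairpin library.

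All members and ARID1B were named, and from each list up to 4 genes, called genes first by size of change and the rest by mean CPM. Other markers, and genes with an unadjusted p under 0.05 in lists without a call, were named after their values were seen. A further gene list and 1 marker are not reported here. The members and lists were chosen with earlier results of these data known.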

Additional observations from a re-analysis of the deposited data

How the results depend on the processing

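The 3 calls (1 higher, 2 lower) were the same genes with relative log expression factors, upper quartile factors, library size alone, the legacy fit and robust empirical Bayes. DESeq2 called 1 higher and 1 lower (CDKN2D and CDK6). A mean CPM of at least 1 left 0 higher and 1 lower (CDK6), with 9 of the 10 tested. Without a filter 0 were higher and 0 lower in edgeR, where 6 of the 10 had an unadjusted p under 0.05 (3218 of all 32925 genes), as against 8 in the filtered fit (4226 of 20382). Over all genes these settings called 761 higher and 282 lower, 622 and 338, and 0 and 0, against 1119 and 655. In the 4 lists 1 gene was higher and 3 lower, with 0 higher in DESeq2 and likewise under the filter of 1 CPM on average, and 0 and 0 without a filter. CDK4 went from 0.05 to -0.00132 with upper quartile factors. The cause was not tested. Leaving out either hairpin library left 1 library against 1 and no test, and no called gene changed sign. No paired analysis was possible because the groups share a single replicate number. Each gene's own spread rests on 1 residual degree of freedom, from the difference between the hairpins. The quasi-likelihood fit adds spread borrowed from other genes (median 14.8 prior degrees of freedom), which weighs more in the standard errors and p-values. Depth limits CDKN1A and CDKN1C.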
